A study of Rattus norvegicus with 6 samples.

Results

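Scavenger receptors and efferocytosis receptors are the surface proteins with which phagocytes take up modified lipoproteins, debris and dying cells. The genes followed were chosen by name, with earlier results of these data known, namely the scavenger receptors Msr1, Marco, Cd163, Mrc1, Stab1 and Lyve1, the receptor kinases Mertk and Axl, and the bridging proteins Gas6 and Mfge8. All 10 genes had a row in every table, among 28615 gene names shared by the time-course tables and 25054 gene symbols of the injected libraries.

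The values are counts of RNA molecules (unique molecular identifiers, UMIs) in single cells of the spinal cord from SD rats aged 6 to 8 weeks, with no other genotype named. The time course, per the titles, holds 4 libraries: intact cord and injured cord on days 1, 3 and 7, the injury being a crush at the tenth thoracic level. For the intact library the treatment field names the crush as well, and its title was taken as right. In the second set the cord was crushed, injected in place on day 3 with PBS or with MPSS at 10 mg/ml in PBS, and collected 2 weeks after injury. MPSS is the labels' abbreviation for the injected drug, and the titles of both injected libraries carry the word re-analyzed. These titles also say 3 dpi (days post injury), and the collection time of 2 weeks was taken from the protocol. A 5-mm segment around the injury was dissociated with collagenase and trypsin, and red cells were lysed. Each condition had 5 animals and 1 library, so animals cannot be told apart, no difference has a replicate check and no test was made.

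Libraries held 1377 to 9263 cells after filtering, with median UMIs per cell of 3090 in the intact cord, 5339.5 on day 1, 6648 on day 3, 3617 on day 7, 10292 with PBS and 10417 with MPSS. Time-course libraries shared 20 to 91 cell barcodes per pair, and the injected pair shared 5. The time-course tables use mouse-style gene names (7654 of the Gm, Rik or ENSMUSG forms) although the labels say rat. Levels of the 2 sets were therefore never set against each other. A level is the summed UMIs of a class in a library per 1000000 UMIs of that class (CPM). Ranges in brackets are 95% intervals (Poisson for levels, binomial for ratios, Clopper-Pearson for shares) that cover counting error only. A gene is called higher or lower when its level differed by at least 2-fold with at least 10 UMIs over both sums, and this is a rule of size.

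Cells were gated into classes by fixed marker lists that hold none of the 10 genes. Microglia numbered 794, 965, 2721 and 3399 from intact to day 7, cells of the macrophage/monocyte list 26, 2144, 2317 and 493, and cells of the border macrophage list (Pf4, Cbr2, Folr2, Cd209f and others) 29, 173, 718 and 122. All 12 microglial markers had UMIs in the microglia of every time-course library, at a summed level of 20132 CPM in the intact cord, 5626 on day 1, 11466 on day 3 and 10442 on day 7. P2ry12, a purine receptor of resting microglia, went from 2023 CPM to 79.6 on day 1, 679 on day 3 and 391 on day 7. The border list did not move as one after injury. All 8 of its markers had UMIs in its cells in every time-course library, and on day 3 all 8 were lower than in the intact cord, while on day 1 Pf4 and Ccl24 were higher. Pf4, a chemokine also known as platelet factor, was at 4140 CPM in the intact cord, 9524 on day 1, 2570.0 on day 3 and 1488 on day 7. Cd209f, a lectin of border macrophages, was at 174, 25.8, 0.310 and 13.1 CPM and Folr2, a folate receptor, at 1111, 213, 134 and 364 CPM. On day 3, 72.7% of these cells lay in cluster 5, led by Fabp5, Gpnmb and Fabp4, with Pf4 also among its leading genes. They are called border-list macrophages below, and their relation to resident border macrophages was not tested. In this text "macrophages" means the macrophage/monocyte and border-list cells and those of both lists, and "phagocytes" adds the microglia and the cells between the microglial and a macrophage list.

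As background, class A scavenger receptors such as Msr1 and Marco bind modified lipoproteins, bacteria and debris. Cd163 takes up haemoglobin bound to haptoglobin, Mrc1 (the mannose receptor, CD206) binds mannose-bearing glycoproteins, Lyve1 binds hyaluronan, and Stab1 clears several ligands including SPARC. In the resting central nervous system Cd163, Mrc1 and Lyve1 mark the macrophages of meninges and perivascular spaces and are low in parenchymal microglia. Mertk and Axl are kinases of the TAM family. Gas6 binds phosphatidylserine on dying cells and activates them, and Mfge8 bridges phosphatidylserine to integrins. Efferocytosis is the engulfment of dying cells, and after cord injury these cells and broken myelin are the main cargo.

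The 3 border-macrophage receptors Cd163, Mrc1 and Lyve1 fell and rose together in the border-list macrophages of the time course. For this reason the 250 bases before their transcription starts are shown (RefSeq, rat build GRCr8, 5′ to 3′ on the gene's strand). Shared regulation was not tested. The Mrc1 window is chr17:82157475-82157724 on the plus strand, the Cd163 window chr4:158770524-158770773 on the plus strand and the Lyve1 window chr1:174410978-174411227 on the minus strand. Capitals mark the core letters GAGGAAG of a PU.1 site, PU.1 being the main transcription factor of macrophages, searched on both strands.
Mrc1: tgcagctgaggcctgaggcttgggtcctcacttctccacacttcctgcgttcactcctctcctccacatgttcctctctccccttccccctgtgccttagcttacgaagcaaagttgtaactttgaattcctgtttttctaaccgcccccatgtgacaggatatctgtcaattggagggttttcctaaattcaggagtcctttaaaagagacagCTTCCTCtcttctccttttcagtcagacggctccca
Cd163: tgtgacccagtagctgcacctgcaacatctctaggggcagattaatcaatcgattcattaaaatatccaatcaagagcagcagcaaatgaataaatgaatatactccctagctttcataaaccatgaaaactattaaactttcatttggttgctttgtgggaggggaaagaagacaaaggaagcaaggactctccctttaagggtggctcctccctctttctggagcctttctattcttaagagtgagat
Lyve1: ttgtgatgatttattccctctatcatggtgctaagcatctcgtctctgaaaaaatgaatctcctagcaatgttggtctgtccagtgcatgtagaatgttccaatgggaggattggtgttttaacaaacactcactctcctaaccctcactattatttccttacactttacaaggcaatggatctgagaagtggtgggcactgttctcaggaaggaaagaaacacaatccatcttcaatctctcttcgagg
Of the 10 genes, 9 had a window, and Msr1 had none. For Marco, Cd163, Stab1, Mertk and Axl the window overlaps the span given for the gene, so the start used is not the gene's outermost. GAGGAAG was found in 3 windows (Mrc1, Marco and Axl), against 10.233% of all 33469 windows of this length. TGANTCA (AP-1, N being any base) and TGCTGAC (the core of a MAF site) were found in 0 of the 9 windows, against 6.3402% and 3.5346% of all windows. A match describes the letters and is no binding site.

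**Figure D1:**
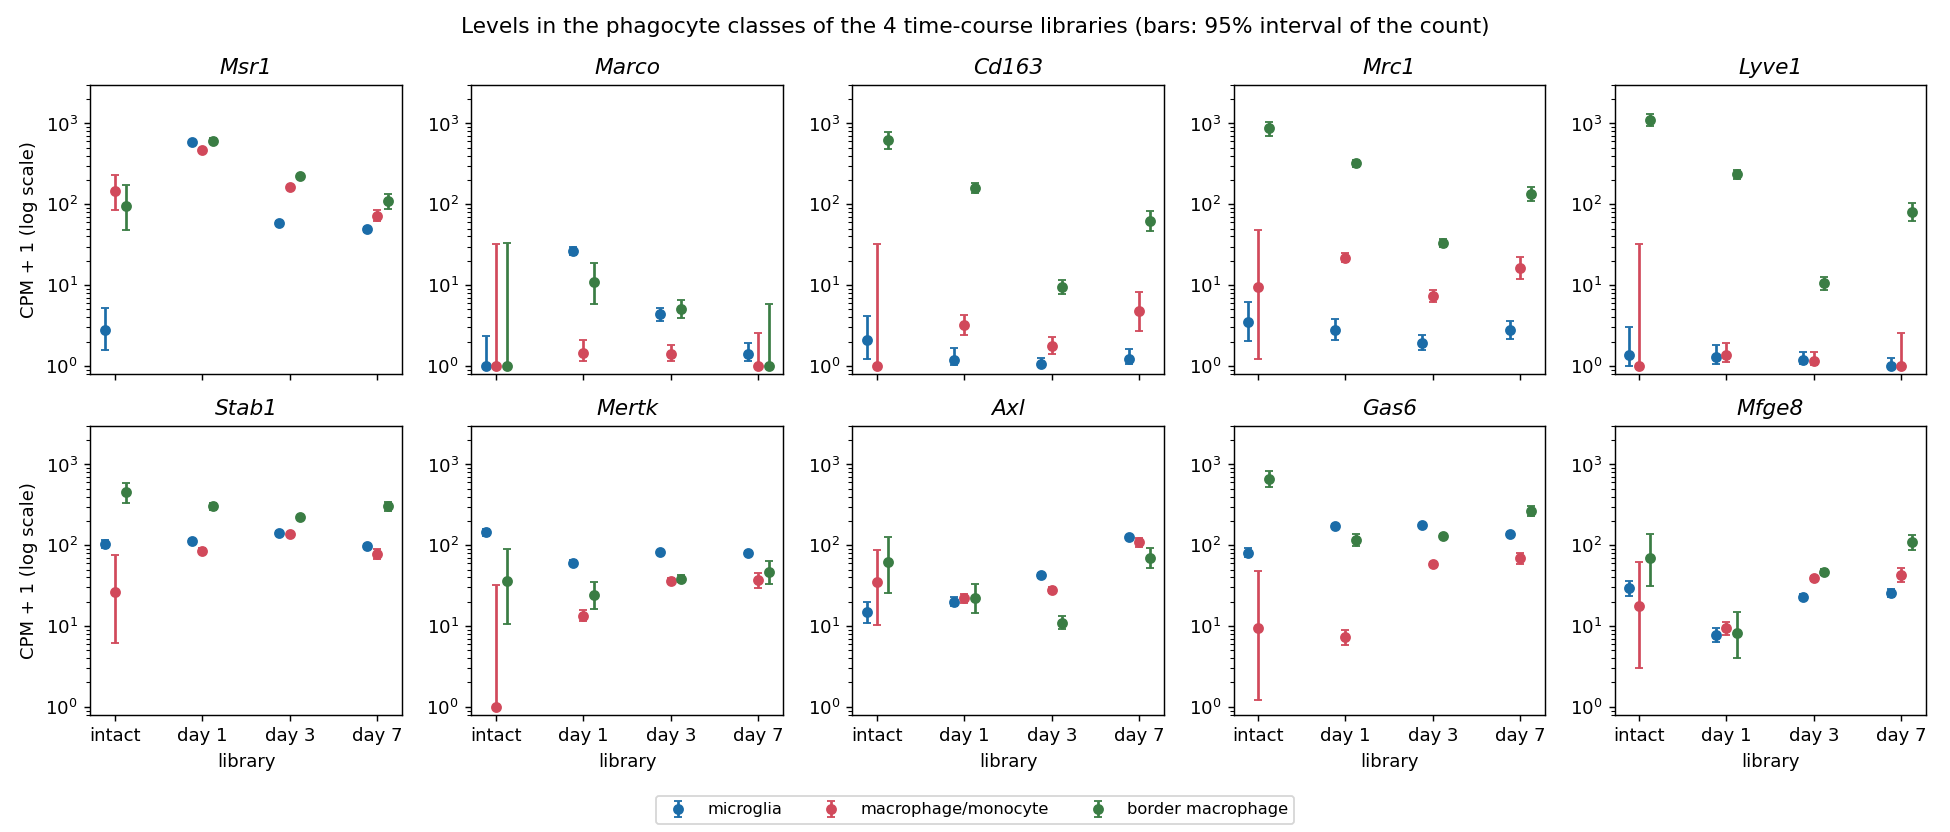
Level of each of the 10 genes (CPM + 1, log axis) in the 3 phagocyte classes of the intact, day 1, day 3 and day 7 libraries. Points are class sums and bars 95% intervals of the count. Msr1 peaks on day 1 in all 3 classes, Cd163, Mrc1 and Lyve1 stay highest in the border-list cells and are lowest there on day 3, and Axl is highest on day 7 in microglia and macrophage/monocyte cells.

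Msr1, the class A scavenger receptor, was high on day 1 and lower at every later time. In microglia its level was 1.79 CPM (0.581 to 4.17) in the intact cord from 5 UMIs, 591 CPM (577 to 605) on day 1, 58.0 CPM (54.9 to 61.3) on day 3 and 47.8 CPM (44.3 to 51.5) on day 7. The day 1 level was 330.4-fold higher (142 to 1018) than the intact level, and the day 3 level 10.2-fold lower (9.59 to 10.8) than on day 1. Day 7 microglia remained 26.7-fold higher (11.4 to 82.6) than intact microglia. In macrophage/monocyte cells the 4 levels were 143, 467, 164 and 71.3 CPM, and in border-list macrophages 95.5, 613, 220.3 and 107 CPM. Day 1 was the highest library in each of these classes. The classes changed places, since microglia stood 1.22-fold above the macrophages on day 1 (1.18 to 1.26) and 3.16-fold below them on day 3.

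Msr1 UMIs were found in 89.7% (87.7 to 91.6) of day 1 microglia, against 0.630% in the intact cord, 18.3% on day 3 and 13.5% on day 7. Day 1 microglia were the deepest, at a median of 11835 UMIs per cell against 3261, 7140 and 3780 in the other libraries. With each cell thinned to 1000 UMIs the shares were 0, 40.4, 3.34 and 3.56%. Ependymal cells, which line the central canal and should lack Msr1, gave 0 (0 of 576 cells, which allows a share of up to 0.521%), 7.41, 3.03 and 1.85% at medians of 2997, 5635.5, 3188 and 2320 UMIs. Thinned, they gave 1.23% on day 1, so the share in microglia was far above this background on day 1.

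The day 1 microglia were less clearly set apart. In that library 145 of the 965 microglia lay within 0.1 of the gate's threshold, against 2 of 794 in the intact cord, 32 of 2721 on day 3 and 143 of 3399 on day 7. Of the day 1 microglia 86.2% lay in cluster 7, whose leading genes are Ccl12, Lpl and Msr1 itself. The intact microglia lay in cluster 12 (97.0%), and those of day 3 in clusters 6, 4 and 15. Ungated day 1 cells, 1136 in number and 41.8% of them in cluster 7, had Msr1 at 593 CPM (interval overlapping that of the gated microglia), and held 26.6% of that library's Msr1 UMIs. Markers of the macrophage/monocyte list summed to 813 CPM in day 1 microglia against 17358 in day 1 macrophages, while Msr1 differed between these classes by 1.22-fold. Over the whole of cluster 7 on day 1, gated or not, Msr1 was at 669 CPM (656 to 681). Neutrophil markers summed to 626 CPM in day 1 microglia and 2211 CPM in day 1 macrophages. Msr1 was also seen outside the phagocytes on day 1, at 243 CPM in cells of the B/plasma list (105 UMIs), 197 in dendritic cells (83 UMIs), 164 in neutrophils, 162 in pericytes and smooth muscle, where 1 cell gave 27.8% of the UMIs, and 29.1 in endothelial cells. Of the cells in these classes, in the same order, 27.8, 56.9, 86.6, 61.1 and 7.17% also passed the gate of a second unrelated class.

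Marco, the second class A receptor of the group, was seen in few cells, most of them microglia of day 1 and day 3. It had 0 UMIs in the intact library, which in intact microglia allows a level of up to 1.07 CPM. Microglia had 25.3 CPM (22.4 to 28.5) on day 1 (281 UMIs), 3.36 CPM (2.63 to 4.22) on day 3 (73 UMIs) and 0.419 CPM (0.154 to 0.913) on day 7 (6 UMIs). Against the intact microglia the day 1 level was at least 23.6-fold higher, with the floor set at 3 UMIs over the class. Microglia held 57.9% of the day 1 Marco UMIs, 59.8% of those on day 3 and all 6 on day 7, and ungated cells held 33.4% on day 1. Macrophage/monocyte cells had 5 UMIs on day 1 and 7 on day 3, so day 1 microglia stood 19.4-fold above the macrophages (11.7 to 34.4).

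Few cells carried Marco. On day 1 it was seen in 6.01% (4.60 to 7.70) of microglia (1.24% when thinned), and 1 cell gave 16.7% of the UMIs, while ependymal cells gave 2 UMIs. Of the 58 Marco-positive microglia of day 1, 56 also had Msr1, against 89.3% of Marco-negative microglia. On day 3 it was 3 of 53, or 5.66%, against 18.5% of the Marco-negative microglia. Marco-positive and Marco-negative microglia were thus both mostly Msr1-positive on day 1 and mostly Msr1-negative on day 3. On day 1 the Marco-positive ones were deeper, at a median of 15286 UMIs against 11468. Border-list macrophages had 11 Marco UMIs on day 1, of which 1 cell gave 54.5%, and 39 on day 3. The 115 day 1 cells of the B/plasma list had Marco at 32.4 CPM (17.7 to 54.4) from 14 UMIs, not beyond the counting interval from microglia. Of these cells 27.8% also passed the gate of a second unrelated class.

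Cd163, Mrc1 and Lyve1 were highest in border-list macrophages of the intact cord, lower on day 1, lowest on day 3 and partly back on day 7. Cd163, the haemoglobin-haptoglobin receptor, was at 625 CPM (489 to 787) in the intact cord, 159 CPM (137 to 184) on day 1, 8.36 CPM (6.64 to 10.4) on day 3 and 61.5 CPM (45.2 to 81.8) on day 7. The day 3 level was 19.0-fold lower (14.6 to 25.1) than on day 1, and the day 7 level 7.36-fold higher (5.02 to 10.7) than on day 3. Its lowest library was day 3 and none of the 4 intervals overlapped another. The intact values come from 29 cells and 72 UMIs.

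Mrc1, the mannose receptor, followed the same order at 868 CPM (706 to 1056), 322 CPM (289.6 to 357), 32.3 CPM (28.8 to 36.1) and 132 CPM (108 to 161) from intact to day 7. Its day 3 level was 9.96-fold lower (8.54 to 11.6) than on day 1, and its day 7 level 4.09-fold higher (3.24 to 5.13) than on day 3. Lyve1, the hyaluronan receptor, was at 1111 CPM (927 to 1321), 234 CPM (206 to 264), 9.50 CPM (7.66 to 11.6) and 79.8 CPM (61.1 to 103). It had the widest swing of the group in this class, 24.6-fold lower (19.4 to 31.6) on day 3 than on day 1 and 8.40-fold higher (5.98 to 11.7) on day 7 than on day 3. On day 3 a single cell gave 32.6% of the Lyve1 UMIs of the class.

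The share of border-list cells with a UMI moved the same way. For Cd163 it was 72.4, 24.9, 5.71 and 14.8% from intact to day 7, or 37.9, 12.1, 0.836 and 5.74% when thinned. For Mrc1 the unthinned shares were 89.7, 52.6, 21.3 and 35.2%, and for Lyve1 69.0, 25.4, 2.23 and 17.2%. Day 3 cells were the deepest of the class (median 12650 UMIs against 3865, 5853 and 5962), so the lowest shares stood in the deepest cells. The ependymal background was 0 to 3 UMIs per library for each of the 3 genes.

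Border-list macrophages held 92.3, 78.2, 75.7 and 68.1% of each library's Cd163 UMIs from intact to day 7. Macrophage/monocyte cells had Cd163 at 2.20, 0.763 and 3.75 CPM on days 1, 3 and 7, and Mrc1 at 20.9, 6.32 and 15.4 CPM. Microglia were near 0 throughout, with Cd163 at 3, 2, 1 and 3 UMIs and Mrc1 at most 2.50 CPM. Outside the phagocytes Lyve1 was seen in fibroblasts, at 11.0, 8.81, 22.5 and 11.0 CPM, which on day 3 was above the level in border-list macrophages. Mrc1 was at 34.7 CPM (15 UMIs) in day 1 cells of the B/plasma list and 17.8 CPM (5 UMIs) in day 7 pericytes and smooth muscle, neither beyond the counting interval from the macrophage/monocyte cells of that day. Of these cells 27.8 and 25% also passed the gate of a second unrelated class.

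Macrophages with Lyve1 or Cd163 mostly had Mrc1 too, while after injury most of those with Mrc1 lacked the other 2 receptors. Of the Lyve1-positive macrophages, 19 of 20 in the intact cord also had Mrc1, against 22.9% of those without Lyve1. On day 1 it was 37 of 47 against 9.70%, and on day 7 it was 17 of 21 against 8.05%. Cells with Cd163 had Mrc1 in 90.5, 80.3, 54.5 and 72% of cases from intact to day 7, against 23.5, 9.23, 7.11 and 7.94% of cells without Cd163. In the other direction, Lyve1 was seen in 70.4, 14.2, 6 and 26.2% of Mrc1-positive macrophages from intact to day 7 and Cd163 in 70.4, 18.8, 12 and 27.7%. Lyve1 was seen in 76.2, 47.5, 16.4 and 44% of the Cd163-positive ones.

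The composition of the class changed along with these levels. In the intact cord 62.1% of border-list cells (18 of 29) and on day 1 29.5% lay in cluster 30, whose leading genes include Lyve1, Mrc1, Cd163, Cbr2, Folr2 and Fcna. Within cluster 30 Cd163 was at 782 CPM in the 18 intact cells, 304 in the 65 cells of day 1 and 112 in the 8 cells of day 7, Mrc1 at 989, 496 and 558 CPM, and Lyve1 at 1526.5, 478 and 1115 CPM. The level on day 7 within this cluster was therefore closer to the intact level for Lyve1 than for Cd163, from 40 and 4 UMIs. The part of cell composition in the change of the class level was not tested.

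Stab1, stabilin-1, varied less than 2-fold between libraries in microglia, where it was at 103 CPM (91.8 to 116), 113 CPM (107 to 119.6), 142 CPM (138 to 148) and 96.5 CPM (91.5 to 102) from intact to day 7, and in border-list macrophages at 451, 302, 221 and 305 CPM. Border-list macrophages were the highest of the phagocyte classes in each library, and their day 3 level was past 2-fold below the intact level of 52 UMIs. Macrophage/monocyte cells were at 25.3 (3 UMIs), 84.9, 135 and 76.7 CPM. Endothelial cells also carried Stab1, at 46.7, 85.3, 62.8 and 51.8 CPM, and gave 33.8% of its UMIs in the intact cord. On day 1 endothelial and macrophage/monocyte cells did not differ in Stab1 beyond the counting interval. Ependymal cells gave 7.43 CPM or less.

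**Figure D2:**
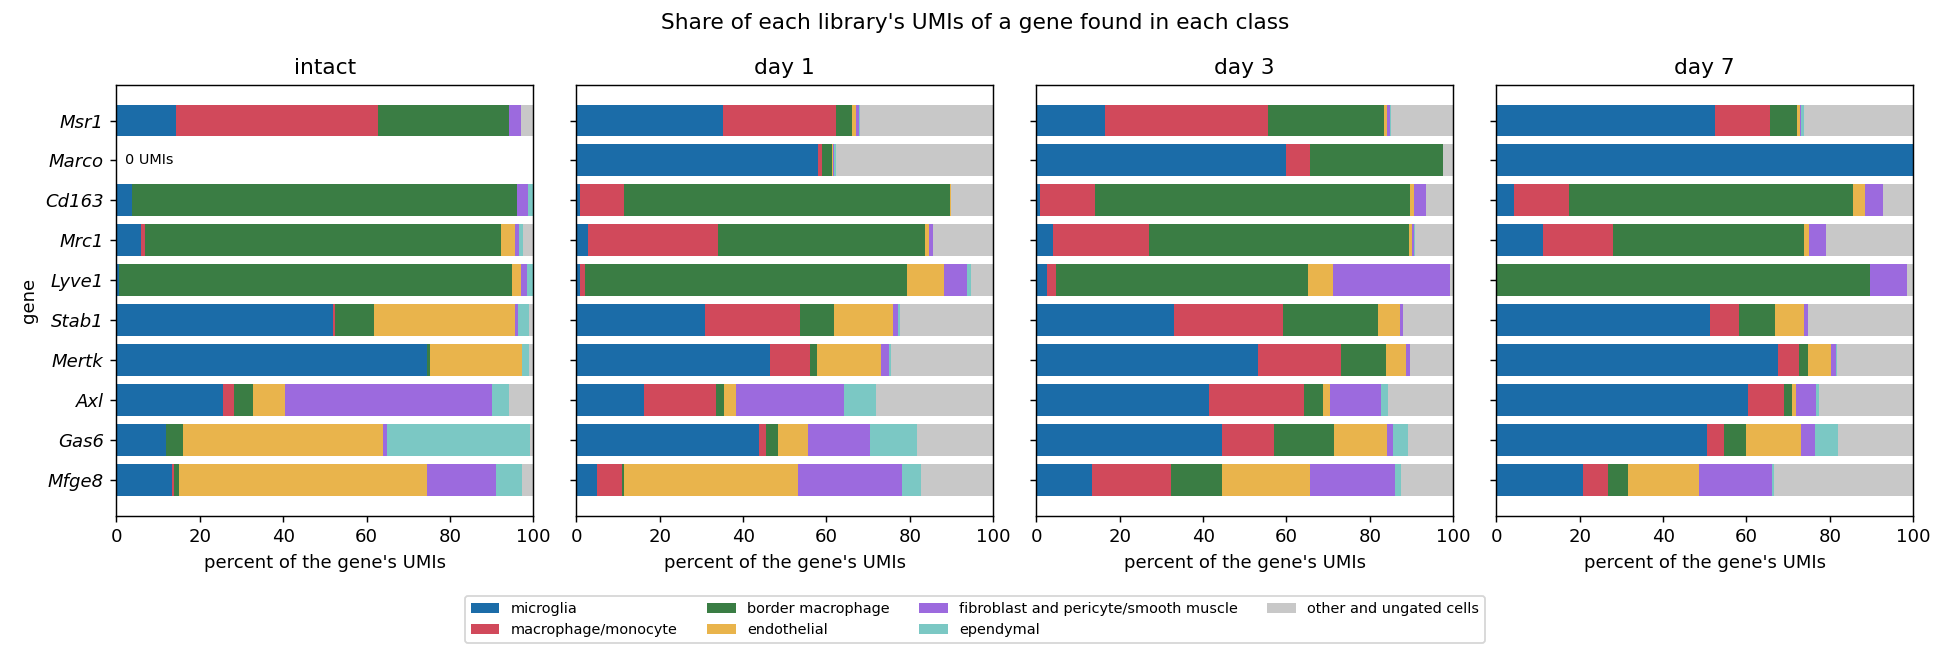
Share of each library's UMIs of a gene (percent) found in each class, for the intact, day 1, day 3 and day 7 libraries. Mertk lies mostly in gated microglia in each library but day 1, when many cells of cluster 7 were ungated and are shown with other cells. Cd163 and Lyve1 lie mostly in border-list macrophages (green, labelled border macrophage). Gas6 UMIs lie mostly in endothelial and ependymal cells in the intact cord, and microglia hold a larger share of them after injury. Shares follow the number and depth of the cells of a class as well as its level.

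Mertk, the receptor kinase of resting phagocytes, was the microglial member of the group. In microglia it was at 143 CPM (129.8 to 158) in the intact cord, 60.01 CPM (55.5 to 64.7) on day 1, 80.9 CPM (77.2 to 84.8) on day 3 and 79.2 CPM (74.7 to 84.0) on day 7. Day 1 was 2.39-fold lower (2.11 to 2.71) than the intact cord, and days 3 and 7 lay between, with overlapping intervals. Macrophage/monocyte cells were lower in each library, with 0 UMIs in the 26 intact cells and 12.5 CPM (10.5 to 14.8), 35.5 CPM (32.9 to 38.4) and 35.8 CPM (28.7 to 44.3) on days 1, 3 and 7. Their day 3 level was 2.85-fold higher (2.37 to 3.45) than on day 1. Microglia were 8.39-fold above the macrophages in the intact cord (3.25 to 30.9), 4.43-fold on day 1, 2.24-fold on day 3 and 2.07-fold on day 7. Microglia held 74.5% of the library's Mertk UMIs in the intact cord, 46.4% on day 1, 53.3% on day 3 and 67.5% on day 7. These are gated cells only, and on day 1, 475 of the 1136 ungated cells lay in cluster 7 with most gated microglia. The unthinned share of microglia with a Mertk UMI was 37.4, 44.6, 44.4 and 27.7%, highest in the deepest cells, those of day 1. Thinned, the share was 11.3, 5.18, 8.01 and 8.68%, highest in the intact cord and lowest on day 1 as the levels were. Ependymal cells had Mertk at 4.77 CPM or less. Endothelial cells had 29.3, 33.0, 19.8 and 25.5 CPM.

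Axl, the kinase of the same family that inflammation induces, went the other way and was highest on day 7. In microglia it was at 14.0 CPM (9.92 to 19.1), 19.1 CPM (16.6 to 21.9), 41.5 CPM (38.8 to 44.3) and 124 CPM (118 to 129.7) from intact to day 7. The day 7 level was 8.88-fold higher (6.47 to 12.5) than the intact level and 2.99-fold higher (2.75 to 3.24) than the day 3 level. These libraries' microglia lay in different clusters, 97.0% of the intact ones in cluster 12, 55.2% of those of day 3 in cluster 6, and 63.1 and 29.0% of those of day 7 in clusters 0 and 4. Within a cluster Axl was also higher on day 7 than on day 3, at 125 against 52.9 CPM in cluster 0, 132 against 47.6 in cluster 4 and 104 against 40.7 in cluster 6. In macrophage/monocyte cells Axl was at 33.7 (4 UMIs), 21.1, 27.3 and 108 CPM, 3.94-fold higher (3.38 to 4.59) on day 7 than on day 3. In border-list macrophages the levels were 60.8 (7 UMIs), 21.3, 10.0 and 69.3 CPM, 6.93-fold higher (4.86 to 9.78) on day 7 than on day 3. Day 7 was the highest library in all 3 classes, although in border-list macrophages its interval overlaps that of the intact cord.

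The thinned share of microglia with an Axl UMI was 1.51, 1.76, 3.86 and 10.4% (4.41, 14.8, 24.5 and 34.8% unthinned). Endothelial cells gave 0.0874, 0.345, 0.509 and 0.561% when thinned, at medians of 2872, 4319, 3924.5 and 2498.5 UMIs before thinning. Whether these shares are background or Axl of the endothelium was not tested. Fibroblasts had Axl at 357, 140.4, 91.8 and 173 CPM and pericytes and smooth muscle at 116, 117 and 175 CPM on days 1, 3 and 7, above the microglia of the same library. Microglia held 25.5% of Axl UMIs in the intact cord and 60.3% on day 7, when they were 28.8 and 45.5% of the cells. Macrophage/monocyte markers summed to 2904 CPM in day 3 microglia and 6314 in those of day 7 (14 of 14 with UMIs in both), and their part in the Axl difference was not tested. Mertk was seen in 29.6% of Axl-positive and 26.6% of Axl-negative microglia on day 7 and in 45.2 and 44.2% on day 3, so the shares lay close together whether Axl was seen or not.

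Gas6, the ligand of both kinases, came from many classes. In the intact cord ependymal cells were at 338 CPM (312 to 365) and endothelial cells at 222 CPM (207 to 237), and they held 34.1 and 47.9% of its UMIs. On day 1 both were lower, endothelial cells 4.83-fold lower (4.24 to 5.52) and ependymal cells 2.86-fold lower (2.54 to 3.23). Endothelial Gas6 was then at 137 CPM on day 3 and 142 on day 7, and ependymal Gas6 at 158 and 221 CPM. Microglia went the other way, at 79.8 CPM (69.6 to 91.0), 172 CPM (164 to 180.0), 177 CPM (172 to 183) and 138 CPM (132 to 145), 2.16-fold higher (1.88 to 2.49) on day 1 than in the intact cord. They held 11.95% of the library's Gas6 UMIs in the intact cord and 43.9, 44.6 and 50.5% on days 1, 3 and 7. Such shares also follow the number and depth of the cells. From intact to day 7 microglia were 28.8, 13.1, 29.4 and 45.5% of the cells. Endothelial cells were 41.5, 15.7, 14.9 and 16.7%, and ependymal cells 20.9, 8.80, 5.34 and 5.08%.

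Macrophage/monocyte cells had little Gas6 on day 1, 6.24 CPM (4.84 to 7.91), and 57.8 CPM (54.4 to 61.4) on day 3, 9.27-fold higher (7.25 to 12.02). On day 1 microglia therefore stood 10.6-fold above the macrophages in Gas6 (9.16 to 12.3), and on day 3 by 2.13-fold. Border-list macrophages were at 659.6, 116, 130.4 and 264 CPM. In fibroblasts Gas6 was at 326 CPM on day 1, 30.8 on day 3 and 203 on day 7. The day 3 fibroblasts were 10.6-fold lower (8.06 to 14.2) than those of day 1, from 143 and 202 cells.

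Mfge8, the bridge to integrins, was mainly a gene of mural and endothelial cells. Pericytes and smooth muscle had it at 415 CPM (365 to 470.4) on day 1, 681 CPM (628 to 739) on day 3 and 830.5 CPM (727 to 944) on day 7. Endothelial cells stayed between 78.7 and 98.6 CPM in the 4 libraries and held 59.4% of its UMIs in the intact cord and 16.9% on day 7. They were 41.5% of the intact cells and 16.7% of those of day 7. In microglia Mfge8 was at 28.3, 6.85, 22.2 and 24.7 CPM, 4.13-fold lower (2.97 to 5.73) on day 1 than in the intact cord and 3.24-fold higher (2.54 to 4.18) on day 3 than on day 1. Macrophage/monocyte cells were at 16.9 (2 UMIs), 8.34, 37.8 and 42.1 CPM, and border-list macrophages at 69.4 (8 UMIs), 7.11, 45.6 and 107 CPM. Day 1 was the lowest library for Mfge8 in all 3 phagocyte classes.

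**Figure D3:**
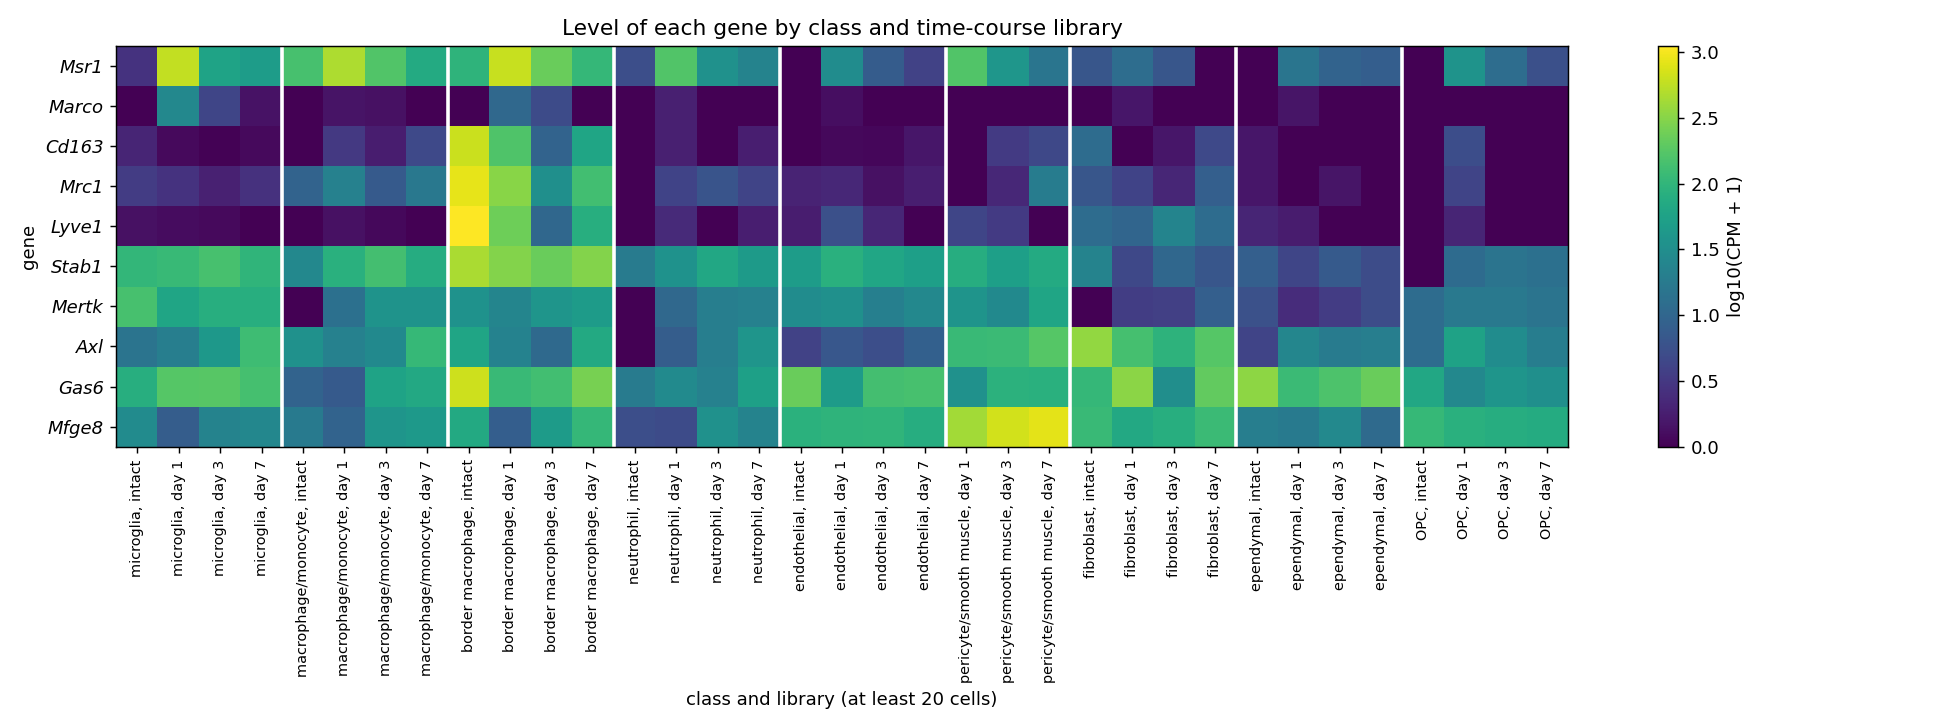
Level of each gene, as log10(CPM + 1) in colour, in each class and time-course library with at least 20 cells. Cd163 and Mrc1 are brightest in border-list macrophages, as is Lyve1 but for day 3, when fibroblasts are brighter. Mfge8 is brightest in pericytes and smooth muscle on days 1, 3 and 7, and Gas6 is spread over microglia, endothelial, ependymal and fibroblast cells.

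The order of the classes set the genes apart within each library. For Msr1 on day 1, border-list macrophages and microglia did not differ beyond the counting interval of their ratio, and macrophage/monocyte cells came after them. For Mertk microglia were first in each library, on day 7 not beyond the interval from pericytes and smooth muscle at 60.6 CPM. For Axl on day 7 the order was pericytes and smooth muscle, fibroblasts, microglia and macrophage/monocyte cells, of which the first pair did not differ. For Gas6 ependymal cells were first among classes of at least 50 cells in the intact cord, fibroblasts on day 1, microglia on day 3 and border-list macrophages on day 7, these last not beyond the interval from ependymal cells. Mfge8 was highest in pericytes and smooth muscle on days 1, 3 and 7.

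Over all phagocytes, 2 of the 10 genes (Msr1 and Marco) were called higher on day 1 than in the intact cord, where 14.2% of the 12779 genes tested were, and 4 (Cd163, Lyve1, Mertk and Mfge8) lower, where 26.9% were. Their median log2 ratio was -0.27 and that of all genes -0.28. On day 3 against day 1, 1 of 10 (Mfge8) was higher, against 9.45% of all genes, and 5 (Msr1, Marco, Cd163, Mrc1 and Lyve1) lower, against 13.2%, at medians of -0.56 and -0.18. On day 7 against day 3, 1 (Axl) was higher, against 6.54%, and 2 (Msr1 and Marco) lower, against 7.39%, at medians of 0.08 and -0.10. These ratios also hold the change in the mix, since microglia were 794 of 849 phagocytes in the intact cord, 965 of 3333 on day 1, 2721 of 5920 on day 3 and 3399 of 4064 on day 7. Without the border-list cells Cd163 turned from a log2 ratio of -1.51 to 0.17 on day 1 against the intact cord, Mrc1 came to 2.13, past the size of a call, Lyve1 was left with under 10 UMIs, and Lyve1 on day 3 against day 1 passed from -2.59 to -0.91, under the size of a call.

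In macrophages alone, 3 of the 10 genes (Mertk, Gas6 and Mfge8) were called higher on day 3 than on day 1, against 9.84% of all genes, and 4 (Msr1, Cd163, Mrc1 and Lyve1) lower, against 12.4%. Their median log2 ratio was 0.16 and that of all genes -0.10. Here Mertk was 2.67-fold higher (2.26 to 3.16), Gas6 5.14-fold higher (4.45 to 5.97) and Mfge8 4.94-fold higher (4.02 to 6.13). The macrophages lay mostly in other clusters on each day, 72.4% in cluster 2 on day 1, 51.0% in cluster 5 on day 3 and 56.4% in cluster 3 on day 7. The part of this in the differences was not tested. On day 7 against day 3, 4 (Cd163, Mrc1, Lyve1 and Axl) were higher, against 9.62%, and 1 (Msr1) lower, against 4.88%, at medians of 0.50 and -0.04. Axl was 4.71-fold higher (4.10 to 5.41) and Mrc1 2.89-fold higher (2.37 to 3.50). With Leiden clusters in place of the gate the log2 ratios on day 7 were smaller, 0.65 in place of 1.53 for Mrc1, which ends its call, 1.32 in place of 2.42 for Cd163 and 1.51 in place of 2.57 for Lyve1. The gate left many day 7 cells of cluster 3 out of the macrophages. Cluster 3 held 484 ungated cells and 348 gated macrophages on day 7, against 211 and 594 on day 3. The part of the ungated cells in the smaller ratios was not tested. Without the border-list cells the day 3 log2 ratio was -1.42 in place of -2.33 for Cd163 and 3.29 in place of 2.36 for Gas6.

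In microglia, 8 of the 10 genes had at least 10 UMIs on day 3 and in the intact cord together. Of these 4 (Msr1, Marco, Axl and Gas6) were called higher, against 9.29% of all genes, and 1 (Mrc1, from 20 and 7 UMIs) lower, against 23.7%, at medians of 0.81 and -0.39. Gas6 was 2.22-fold higher (1.94 to 2.56) and Axl 2.97-fold higher (2.16 to 4.21). On day 7 against day 3, Axl was higher, against 3.75% of all genes, and Marco (6 and 73 UMIs) lower, against 6.44%, at medians of -0.16 for the 8 genes and -0.19 for all genes. The counting interval of the Mrc1 ratio, 2.72-fold lower (0.973 to 6.70), includes equality. Its log2 ratio of -1.45 on day 3 was -0.95 and -0.93 under 2 other scalings, under the size of a call. That of Msr1, 5.02, was 4.11 as a mean over cells. Comparisons that follow each other in time share a library.

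The other genes of these pathways were taken from 4 fixed lists: 19 other scavenger receptors, 22 other recognition and bridging genes, 22 engulfment and lipid response genes, and 11 brakes and shedding genes. In phagocytes on day 1 against the intact cord, 3 of 13 tested scavenger receptors were higher and 3 lower, where 14.2% of all genes were higher and 26.9% lower, among them Cd36, the fatty acid and oxidised lipoprotein receptor, from 6.27 to 61.8 CPM, 9.86-fold higher (6.29 to 16.4). Of the 17 recognition and bridging genes 4 were higher and 9 lower, at a median log2 ratio of -1.29 against -0.28 for all genes. Thbs1, thrombospondin-1, went from 51.5 to 1494 CPM, 29.0-fold higher (24.8 to 34.2). Thbs1 is also a marker of the macrophage/monocyte list, so its ratio follows in part from the gate. Trem2, the lipid-sensing receptor of microglia, went from 2178 to 426 CPM, 5.11-fold lower (4.95 to 5.27). Microglia were a smaller part of the day 1 phagocytes, and in microglia alone Trem2 went from 2336 to 676 CPM, 3.45-fold lower (3.34 to 3.57). Of 22 engulfment and lipid genes 4 were higher and 1 lower, with the lysosomal membrane protein Lamp1 from 142 to 766 CPM, 5.40-fold higher (4.91 to 5.95) and the engulfment adaptor Elmo1 from 157 to 25.5 CPM, 6.17-fold lower (5.46 to 6.97). These were not changes of phagocytes alone. Lamp1 was also higher on day 1 in endothelial cells, 3.50-fold (3.14 to 3.91), and in ependymal cells, 4.88-fold (4.09 to 5.86), and Elmo1 was 2.21-fold lower (1.75 to 2.79) in endothelial cells. Of 11 brakes and shedding genes 3 were higher and 0 lower, with Cd24a, a sialylated surface protein, from 20.1 to 267 CPM, 13.3-fold higher (10.3 to 17.4). In microglia alone, 10 of these genes were tested on day 1 against the intact cord, and 0 were called higher and 0 lower.

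In macrophages on day 3 against day 1, where 9.84% of all genes were higher and 12.4% lower, 3 of 13 scavenger receptors were higher and 1 lower, 4 of 18 recognition genes higher and 3 lower, 1 of 22 engulfment genes higher and 0 lower, and 1 of 11 brakes higher and 3 lower. Trem2 went from 199 to 1139.5 CPM, 5.72-fold higher (5.49 to 5.97), and C1qc, a chain of the complement protein that coats dying cells, from 434 to 1917 CPM, 4.42-fold higher (4.30 to 4.55). Nr1h3, the oxysterol receptor LXR alpha, went from 10.4 to 31.0 CPM, 3.00-fold higher (2.49 to 3.64). Thbs1, a marker of the macrophage/monocyte list that helped to gate these cells, went from 2812 to 1019.9 CPM, 2.76-fold lower (2.71 to 2.80). Socs3, an inhibitor of cytokine signalling, went from 173 to 57.9 CPM, 2.99-fold lower (2.81 to 3.19). On day 7 against day 3, where 9.62% of all genes were higher and 4.88% lower, 3 of 13 scavenger receptors were higher and 1 lower, 3 of 17 recognition genes higher and 3 lower, 0 of 22 engulfment genes higher and 3 lower, and 1 of 11 brakes each way. Cd36 went from 127 to 43.7 CPM, 2.92-fold lower (2.46 to 3.48), Nr1h3 from 31.0 to 8.17 CPM, 3.80-fold lower (2.57 to 5.85) and C1qa from 1750 to 3736 CPM, 2.13-fold higher (2.09 to 2.18).

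In microglia on day 3 against the intact cord, where 9.29% of all genes were higher and 23.7% lower, 5 of 13 scavenger receptors were higher and 2 lower, 4 of 15 recognition genes higher and 1 lower, 5 of 22 engulfment genes higher and 2 lower, and 1 of 11 brakes each way. Lamp1 went from 136 to 1315 CPM, 9.70-fold higher (8.76 to 10.8), and Rac1, the GTPase of the phagocytic cup, from 134 to 542 CPM, 4.04-fold higher (3.64 to 4.49). Endothelial and ependymal cells showed both as well against the intact cord. On day 7 Lamp1 was 4.06-fold (3.63 to 4.56) and 7.18-fold (5.93 to 8.73) higher in these classes, and Rac1 2.14-fold (1.97 to 2.33) and 3.54-fold (2.80 to 4.49) higher. Cd5l, a scavenger-domain protein of macrophages, had 1 UMI in intact microglia and 888 on day 3, from 0.358 to 40.8 CPM, 114-fold higher (20.4 to 4513). Cd300lf, a phosphatidylserine receptor, went from 5.01 to 26.4 CPM, 5.27-fold higher (3.12 to 9.70). On day 7 against day 3, where 3.75% of all genes were higher and 6.44% lower, 1 of 14 scavenger receptors was higher and 3 lower, 0 of 15 recognition genes higher and 2 lower, 0 of 22 engulfment genes higher and 1 lower, and 1 of 11 brakes each way. Olr1, the oxidised lipoprotein receptor LOX-1, went from 8.97 to 20.9 CPM, 2.33-fold higher (1.94 to 2.81).

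Across the 34 class and library sums with at least 50 cells, the genes whose log2 levels were most like a member's are given as a description. These sums share libraries, and each class appears up to 4 times. Msr1 was most like Dok2 (Pearson r 0.92), Ccl9 (0.91) and Ms4a6d (0.91). Cd163 was most like Fcna (0.91), Cbr2 (0.84) and Ccl8 (0.82), Mrc1 like Fcna (0.87), Cbr2 (0.83) and Ccl24 (0.79), and Lyve1 like Ccl8 (0.87), Fcna (0.84) and Hgsnat (0.79). Of these Fcna, Cbr2 and Ccl24 are markers of the border list that gated the class, so their likeness follows in part from the gate. Stab1 was most like Tmem37 (0.89), Dnase2a (0.88) and Adam17 (0.86), and Mertk like Sft2d1 (0.88), Abi3 (0.85) and Adam17 (0.85). Axl was most like the fibroblast-rich Colec12 (0.76), Aspn (0.71) and C1s1 (0.71), and Gas6 like Akip1 (0.74), Rnase4 (0.68) and Il11ra1 (0.68). Mfge8 was most like Mylk (0.90), Gamt (0.86) and Ppp1r14a (0.85), and Marco was too rare to be ranked.

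In the injected cords the question was whether the drug shifts these receptors against its carrier. Microglia numbered 194 with PBS and 261 with MPSS, and border-list macrophages 266 and 414. Of the border list Cd209f had 0 UMIs in both libraries and Ccl24 0 and 5, while Folr2 was at 904 and 860.2 CPM and Pf4 at 942 and 939, so the class there is one of Folr2 and Pf4. In the microglia 9 of 11 measured microglial markers had UMIs with PBS and 10 of 11 with MPSS. P2ry12 was at 43.5 and 27.9 CPM, and Siglech at 0 in both. In the PBS microglia the microglial list summed to 1434 CPM, the macrophage/monocyte list to 2254 and the border list to 450. The median microglial cell had 2 markers of the border list in each library. The part of this in the levels of the class was not tested. Marco had 0 UMIs in both libraries, which in macrophages allows up to 0.544 CPM with PBS and 0.391 CPM with MPSS, and Stab1 at most 3.02 CPM in these 3 phagocyte classes.

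**Figure D4:**
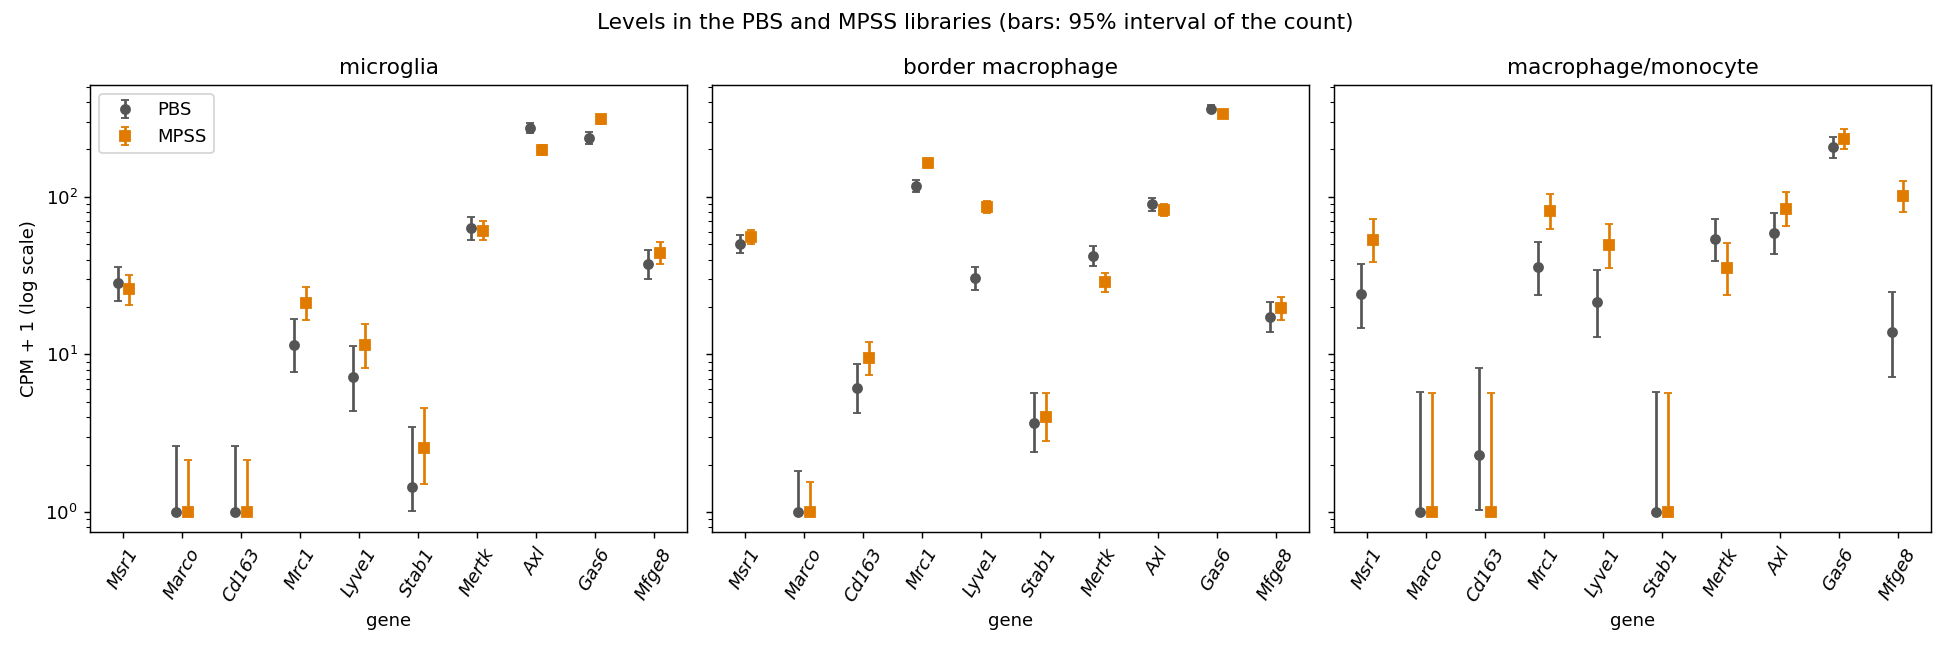
Level of each gene (CPM + 1, log axis) in 3 phagocyte classes of the PBS and MPSS libraries. Points are class sums and bars 95% intervals of the count. Lyve1 and Mrc1 are higher with MPSS in border-list macrophages and in macrophage/monocyte cells. Mertk is lower in both, in macrophage/monocyte cells from only 41 and 27 UMIs. Msr1 and Mfge8 are also higher with MPSS in macrophage/monocyte cells.

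Lyve1 stood out in the macrophages, at 29.4 CPM (25.0 to 34.2) with PBS and 80.4 CPM (74.1 to 87.0) with MPSS, 2.74-fold higher (2.30 to 3.28). It was the 1 gene of 9 tested called higher, against 2.3% of all genes, and 0 were called lower, against 4.4%, at medians of 0.33 for the 9 genes and -0.03 for all genes. The share of macrophages with a Lyve1 UMI was 17.6% with PBS and 20.3% with MPSS, or 3.41 and 8.11% when thinned. Oligodendrocytes, which should lack Lyve1, gave 1 UMI in each library at medians of 11509 and 12355 UMIs per cell. In border-list macrophages Lyve1 was at 29.4 CPM (24.6 to 34.9) and 85.1 CPM (78.2 to 92.5), and 1 cell gave 10.7 and 9.93% of these UMIs. Among the macrophages without the border-list cells the log2 ratio was 0.78 in place of 1.45, under the size of a call. The rise was not in border-list cells alone. In macrophage/monocyte cells Lyve1 was at 20.7 CPM (16 UMIs) with PBS and 48.6 CPM (38 UMIs) with MPSS.

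Much of the Lyve1 in both libraries lay in cluster 13, led by Clec10a, Cxcl13 and Lyve1. Its 37 PBS cells had Lyve1 at 276 CPM (218 to 344) and its 56 MPSS cells at 690 CPM (615 to 772). They held 36.0% and 43.5% of the library's Lyve1 UMIs. Mrc1 in the same cells was at 515 and 674 CPM and Cd163 at 118 and 78.7 CPM. Whether animals or the drug set this cannot be told apart with 1 library each.

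Mrc1 in macrophages was at 102 CPM (93.6 to 111) with PBS and 151 CPM (142 to 159.9) with MPSS, 1.48-fold higher (1.34 to 1.64). Cd163 was at 4.35 and 7.29 CPM from 24 and 56 UMIs. Of the Lyve1-positive macrophages 83.9% with PBS and 87% with MPSS had Mrc1, against 53.3 and 60.6% of those without Lyve1. Mertk was 1.45-fold lower (1.20 to 1.75) with MPSS, at 42.4 and 29.3 CPM. Msr1 was 1.20-fold higher (1.02 to 1.41), Axl 1.01-fold lower (0.895 to 1.14) and Gas6 1.04-fold lower (0.977 to 1.10), the intervals of Axl and Gas6 including equality. Mfge8 was 1.79-fold higher (1.38 to 2.34), but 1 macrophage/monocyte cell gave 78.2% of the UMIs of its class with MPSS. In the 74 and 63 macrophage/monocyte cells alone Msr1 was at 23.2 and 52.4 CPM (18 and 41 UMIs) with PBS and MPSS. Mrc1 there was at 34.9 and 80.5 CPM (27 and 63 UMIs), and Mfge8 at 12.9 and 99.7 CPM. Mertk was lower with MPSS in these cells too, at 52.9 and 34.5 CPM, but from only 41 and 27 UMIs.

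In microglia of the injected cords 0 of 7 tested genes were called higher, against 3.65% of all genes, and 0 lower, against 3.57%, at medians of 0.25 and 0.00. Axl was at 272 CPM (251 to 295) with PBS and 198 CPM (183 to 214) with MPSS, and was seen in 86.6% and 81.6% of the cells. Gas6 was at 235 CPM (215 to 255) and 309 CPM (289.7 to 328). The intervals did not overlap for either gene, in opposite directions, and both differences were under 2-fold. Mertk was at 62.4 CPM (52.5 to 73.5) and 60.1 CPM (52.0 to 69.1), with overlapping intervals. Mrc1, at 10.5 CPM (24 UMIs) and 20.2 CPM (66 UMIs), was 1.92-fold higher (1.19 to 3.20) with MPSS, just under the size of a call. In each library microglia had more Axl than macrophages, 3.16-fold with PBS and 2.32-fold with MPSS, and more Mertk, 1.47-fold and 2.05-fold.

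Outside the phagocytes Gas6 in fibroblasts was at 429 CPM (399.6 to 460.1) with PBS and 277 CPM (255 to 299) with MPSS, 1.55-fold lower (1.39 to 1.73). Mfge8 was at 125 and 142 CPM in fibroblasts and 443 and 401 CPM in the 32 and 31 endothelial cells. Schwann cells carried Axl at 91.7 and 93.7 CPM, and oligodendrocytes at 3.61 and 1.12 CPM. Of the other genes of the pathways, macrophages had 0 of 13 scavenger receptors higher and 2 lower with MPSS, 0 of 14 recognition genes either way, where 2.3% of all genes were higher and 4.4% lower, 0 of 16 engulfment genes higher and 2 lower, and 0 of 9 brakes either way. Scarf1, a scavenger receptor first found on endothelium, went from 7.79 to 3.00 CPM, 2.60-fold lower (1.53 to 4.52). In microglia 1 of 8 scavenger receptors, 1 of 12 recognition genes and 2 of 14 engulfment genes were lower and 0 higher, where 3.57% of all genes were lower and 3.65% higher, and 1 of 8 brakes was called each way, with Tgfb1, the cytokine TGF beta 1, from 110.2 to 233 CPM, 2.11-fold higher (1.83 to 2.44).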

How the data were processed

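The deposited files hold UMI counts for every gene and cell, which the authors made with Cell Ranger, and the version is 3.0.2 in the submitters' processing notes and 3.1.0 in the header lines of the injected libraries. The genome build and annotation are not given in the sources used here. A cell was kept if it had 200 genes or more, 500 UMIs or more and no more than 20% of UMIs from mitochondrial genes, a filter that all time-course cells, 1377 of 1513 cells with PBS and 2091 of 2339 with MPSS passed. The intact and day 1 matrices wrote 2104 gene names otherwise than those of days 3 and 7, and these were set back, while 77 further names were left out.

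The members, gene lists and comparisons were chosen with earlier results of these data known. For the gate, counts per 10000 were logged, and a cell's score on each of 18 marker lists was its mean standardised value, capped at 3. A class needed a score of 0.1 (phagocyte lists) or 0.5 (other lists), 3 markers seen and a lead of 0.1 over the next class, or else the cell stayed ungated or, between 2 phagocyte lists, was kept as such. These thresholds were set after seeing the data. UMIs were summed per class and library, and with 1 library a group no test could be made, so that every interval covers counting error only.

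All 10 members are described. Pathway genes were named from the 2 highest and 2 lowest ratios of each list past 2-fold with 50 UMIs or more, and the 3 genes of highest Pearson r on log2(CPM + 10) are given for likeness, among genes with at least 200 UMIs and a highest level of at least 50 CPM. No doublet caller was run.

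The results were recomputed, each where it applied, under 13 other settings: edgeR's TMM factors, median-of-ratios factors, library totals that omit mitochondrial and ribosomal protein genes, a minimum of 1 or of 50 UMIs, cells thinned to 1000 UMIs, a mean over cells, a lead of 0.3, a cell filter of 1000 UMIs and 10% mitochondrial UMIs, leaving out likely doublets (the 5% of cells richest in UMIs and cells past the gate of a second unrelated class), leaving out border-list cells, leaving out the highest cell, and Leiden clusters in place of the gate (2000 variable genes without the members, 30 components, 20 neighbours, resolution 1). A phagocyte threshold of 0.3 was added after seeing the data. The interval and call steps were tested on simulated data. Tools were R 4.3.3 with edgeR 4.0.16, and Python 3.11.15 with scipy 1.17.1, numpy 2.4.6, matplotlib 3.10.9, python-igraph 0.11.9 and leidenalg 0.10.2.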

Additional observations from a re-analysis of the deposited data

Results flagged for a closer look

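Gas6 went opposite ways in the 2 phagocyte groups between day 3 and day 7, and this is what singled it out. The day 7 level was 0.780 times the day 3 level in microglia, and 1.38 times it in macrophages, each with a counting interval clear of equality. Both ratios are under 2-fold, and with 1 library per day the difference between the groups was not tested.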

How the results depend on the processing

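Scaling by TMM moved all log2 ratios up by 0.44 in phagocytes on day 1 against the intact cord, 0.23 on day 3 against day 1, 0.16 in macrophages on day 3 against day 1, and in microglia by 0.50 on day 3 against the intact cord and 0.17 on day 7 against day 3, which by construction lifts weak decreases under the size of a call. Over all alternatives 206 counts of called genes stayed within 1.5 times the reported count and 22 did not. In phagocytes, without border-list cells 2 genes in place of 4 were lower on day 1 against the intact cord, and Cd163 reversed, from a log2 ratio of -1.51 to 0.17. On day 3 against day 1, 2 genes in place of 1 were higher as a mean over cells, Mertk being the added one. On day 7 against day 3, 3 genes in place of 1 were higher with likely doublets left out (Cd163 and Lyve1 added), and 2 as a mean over cells or without the highest cell (Lyve1 added). In macrophages on day 7 against day 3, 2 genes in place of 1 were lower with clusters in place of the gate. In microglia on day 3 against the intact cord, 0 genes in place of 1 were lower under TMM, median-of-ratios scaling or a minimum of 50 UMIs, and 2 with a minimum of 1 UMI. In microglia on day 7 against day 3, 2 genes in place of 1 were higher under TMM, median-of-ratios scaling, clusters or with doublets left out (Mrc1 added), and 2 with a minimum of 1 UMI (Cd163, from 3 UMIs and 1 UMI). In macrophages with MPSS against PBS, 2 genes in place of 1 were higher with doublets left out (Mfge8 added) or border-list cells left out (Mrc1 and Mfge8, with Lyve1 lost). In microglia with MPSS against PBS, 1 gene in place of 0 was higher with a minimum of 1 UMI, a stricter margin, the stricter phagocyte threshold added after seeing the data, or without the highest cell, and 2 (Mrc1 and Lyve1) with clusters. Except for scaling and minimum counts, the cause of these moves was not tested. Over the 419 recomputed log2 ratios of called genes, 6 came under 2-fold and 1 of these changed direction. No paired analysis was possible because each group has 1 library, and none could be left out. Depth limits Marco on day 7, Cd163 and Lyve1 in microglia, and all values of the 26 macrophage/monocyte and 29 border-list cells of the intact cord.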
